A study of Arabidopsis thaliana with 6 samples.

Results

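Class III peroxidases are the large family of secreted, haem-containing peroxidases of plants. Their genes were chosen by a list of 60 loci of Arabidopsis thaliana, of which 48 had a probe set of their own on the array, among 13286 genes with such a probe set in all. The loci are called here by the family numbers PRX1 to PRX73, which follow the order of the loci along the chromosomes. Another 7 of the listed loci, PRX14, PRX15, PRX22, PRX23, PRX29, PRX50 and PRX51, lie on 4 probe sets that also stand for another gene, and no value is given for them. The 5 loci PRX1, PRX4, PRX60, PRX64 and PRX73 have no probe set named here and were not analysed.

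These enzymes use hydrogen peroxide to oxidise phenolic compounds in the cell wall. In roots they couple lignin monomers in xylem vessels and in the Casparian strip, the lignin belt of the endodermis, and cross-link extensins in the walls of root hairs. They can also release or remove reactive oxygen, and the transcription factor UPB1 is known to set the size of the root meristem by repressing some of them.

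RNA came from 5 mm root tips of 7-day-old wild-type Col-0 seedlings grown in shaken liquid MS medium under continuous light. All seedlings had received a synthetic CLE peptide, a short plant signalling peptide, at 1000 nM for 12 h. One group was given CLE10 and the other CLE25, with 3 arrays each, so n = 3 for every group mean below. Arrays of untreated roots were not analysed here, so each value sets one peptide against the other, and the question of the study was which genes lie behind their unlike effects. Whether the arrays of a group stem from separate cultures is not stated in the labels. A p-value or a confidence interval therefore covers no more than array-to-array spread, which may be technical.

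A value is the signal of a probe set, a scaled linear intensity, and the values of a gene are given in the order of replicates 1, 2 and 3. Signals of different probe sets depend on their probes and are not an order of RNA levels between genes. In whole root tips, fewer cells of a type and less RNA per cell cannot be told apart. The trimmed mean was 500 on each array and the median lay between 157 and 172. Of the marker lists, 2 of 11 root hair genes, 2 of 12 Casparian strip genes and 1 of 10 xylem vessel genes had a probe set of their own. LHCB4.1, the 1 gene of 5 measured for green tissue, averaged 121 ± 27.9 (SD) on the CLE10 arrays and 91.6 ± 46.1 on the CLE25 arrays, close to the limit below which probe sets were called dim. None of these markers was listed at 0. BBM, a meristem transcription factor and 1 of 4 meristem markers measured, had 121 ± 13.4 and 103 ± 30.7, also close to the limit for dim probe sets. No root cap marker of 4 was measured.

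The share of the family bright enough to be tested was close to that of all probe sets, which the filter sets at 60%. Of the 48 measured peroxidases, 30 (62.5%) were bright enough to be tested, a mean log2 value above 6.62 after the pseudocount, or a signal near 92.3, which 60% of all probe sets reached. For 19 the mean signal over the 6 arrays was at least 1000, and for 6 it was at least 5000. These 6 were PRX45, PRX57, PRX44, PRX69, PRX7 and PRX16. The shares of all probe sets above these signals were not computed. The other 18 were dim, with signals from 1.77 to 172 on single arrays, and 9 of them stayed under 50 on every array. Among the dim ones were PRX36, which is known for its part in the seed coat, with a mean of 4.87 with CLE10 and 7.4 with CLE25, and PRX58, with 4.8 and 5.4.

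**Figure D1:**
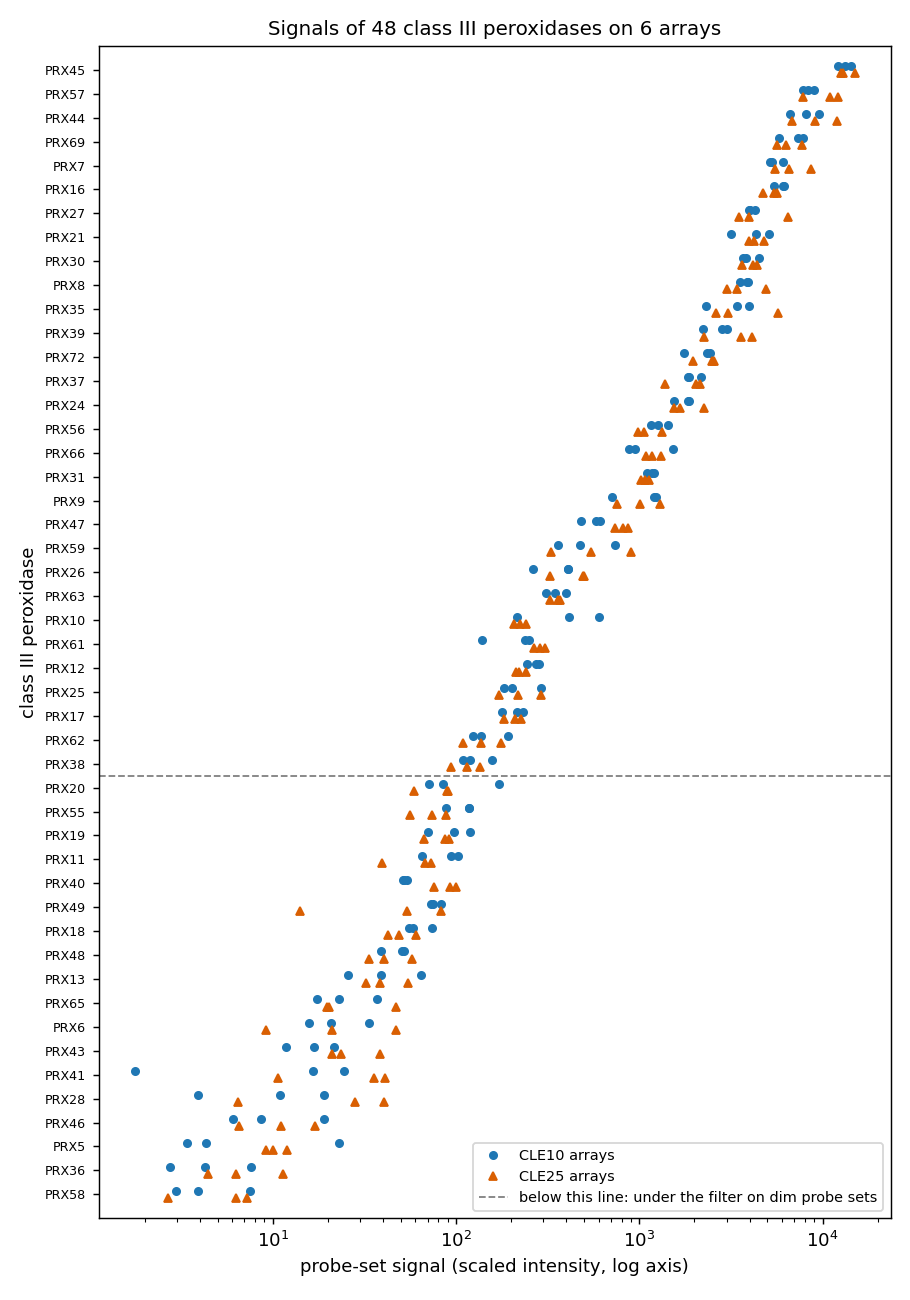
Signals of the 48 measured class III peroxidases (rows, sorted by mean) on a log axis, with a point for each CLE10 array (circles) and each CLE25 array (triangles). The 30 genes above the dashed line were tested, and the ranges of the peptides overlap for all of these 30 except PRX47, PRX61 and PRX12.

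Between the peptides the family differed little. No peroxidase passed the test (0 of 30, limma adjusted p of 0.856 for PRX47 and 0.999 or above for the others), beside 0% of all 13648 probe sets tested. The log2 fold changes, CLE25 minus CLE10, ran from -0.74 for PRX10 to 0.53 for PRX47, and 21 of the 30 lay within 0.2 of 0. Their median was 0.02, beside -0.002 for all probe sets, and 18 of 30 (60%) lay above 0, beside 49.4% of all probe sets. The sign of the median depended on single arrays, with -0.04 without CLE10 replicate 2 and -0.03 without CLE25 replicate 3. The median size of the fold change, without its sign, was 0.12 for the peroxidases and 0.095 for all probe sets.

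By array-to-array spread alone, most differences were bounded within 2-fold, though less closely than for all probe sets. The 95% confidence interval of the difference stayed within 2-fold in both directions for 29 of 30 peroxidases (96.7%), beside 98.7% of all probe sets. PRX10 was the exception. The interval lay inside 1.5-fold for 20 of 30 (66.7%), beside 81.5% of all probe sets, and the median standard error was 0.154 for the family and 0.140 for all. At an unadjusted p under 0.05 stood 3 of 30 peroxidases (10%), PRX47, PRX10 and PRX61, beside 4.21% of all probe sets. Leaving out CLE10 replicate 1 made that count 1 and leaving out CLE25 replicate 2 made it 5, and it was 7 with a replicate block, where 5.96% of all probe sets reached it. The arrays of the peptides did not overlap for 3 of 30 (10%), PRX47, PRX61 and PRX12, beside 9.18% of all probe sets, so this share is close to the background.

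**Figure D2:**
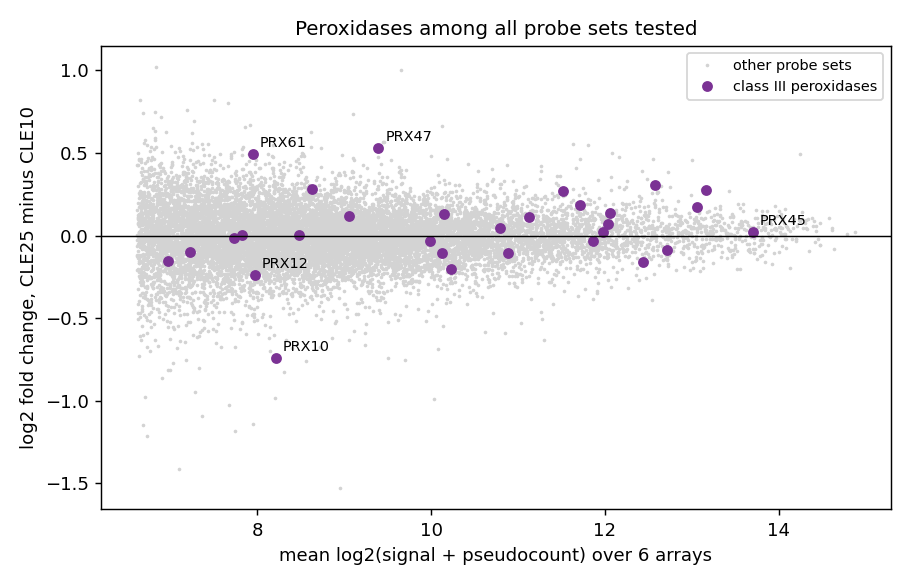
Log2 fold change, CLE25 minus CLE10, against the mean log2 signal over 6 arrays for the 13648 probe sets tested, with the 30 class III peroxidases as large points. The peroxidases span the range of brightness, and all but PRX10, PRX47 and PRX61 lie between -0.24 and 0.31.

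**Figure D3:**
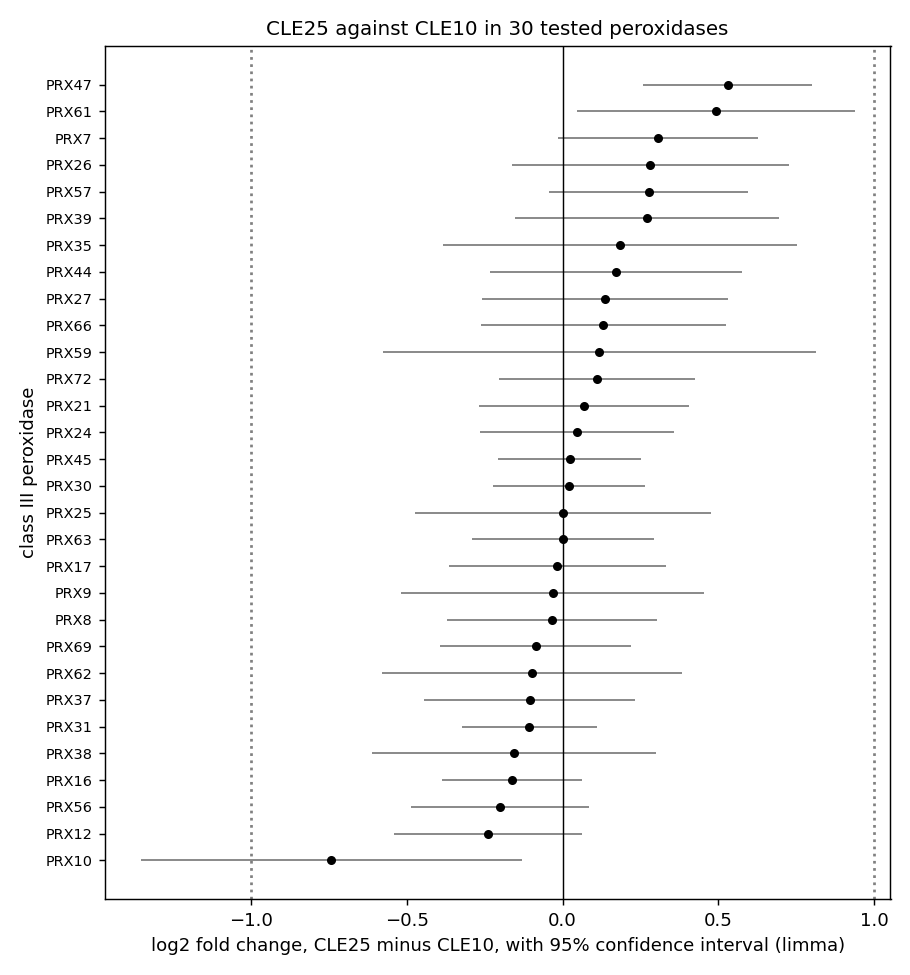
Log2 fold change, CLE25 minus CLE10, of the 30 tested peroxidases with its 95% confidence interval from limma, sorted by value; dotted lines mark 2-fold. Only the intervals of PRX47, PRX61 and PRX10 leave out 0, before any adjustment for the number of tests.

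Among the peroxidases of vessels and lignin, PRX47 had more signal with CLE25, though it did not pass the test. PRX47 (AT4G33420), which is known from differentiating vessels, had signals of 581, 482 and 607 on the CLE10 arrays and 736, 868 and 810 on the CLE25 arrays. Every CLE25 array lay above every CLE10 array. The means were 557 ± 65.9 (SD) and 805 ± 66.4, a ratio of 1.44, and the log2 fold change was 0.53 ± 0.12 (SE) with an interval from 0.26 to 0.80. By limma's p it stood at rank 17 of 13648 probe sets (limma adjusted p = 0.856, and 0.476 to 1.0 over its alternatives). The fold change was 0.43 to 0.59 when single arrays were left out. PRX47 is the member of smallest p, and its difference was known when the members were chosen.

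The other members of this group had overlapping arrays. PRX66 (AT5G51890), known like PRX47 from differentiating vessels, had 948, 875 and 1523 with CLE10 and 1314, 1084 and 1168 with CLE25. Its highest array was a CLE10 array, the log2 fold change was 0.13 ± 0.18, and without CLE10 replicate 2 the sign turned (-0.02). PRX72 (AT5G66390), an enzyme of stem lignification that also acts in the Casparian strip, had 2436, 1745 and 2351 with CLE10 and 2554, 1974 and 2496 with CLE25. Replicate 2 was the lowest array of both peptides for this gene. PRX25 (AT2G41480), also linked to stem lignin, had 202, 291 and 183 with CLE10 and 217, 290 and 171 with CLE25, and its fold change was bounded between -0.47 and 0.48. PRX17 (AT2G22420), known from lignified tissue, had 233, 178 and 216, and 183, 226 and 209, with bounds of -0.37 and 0.33. The 1 vessel marker measured, IRX10, which encodes a xylan synthase subunit, had 260, 272 and 287 with CLE10 and 319, 272 and 283 with CLE25. The difference was 0.09 ± 0.13 (log2), and its part in the PRX47 value was not tested.

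**Figure D4:**
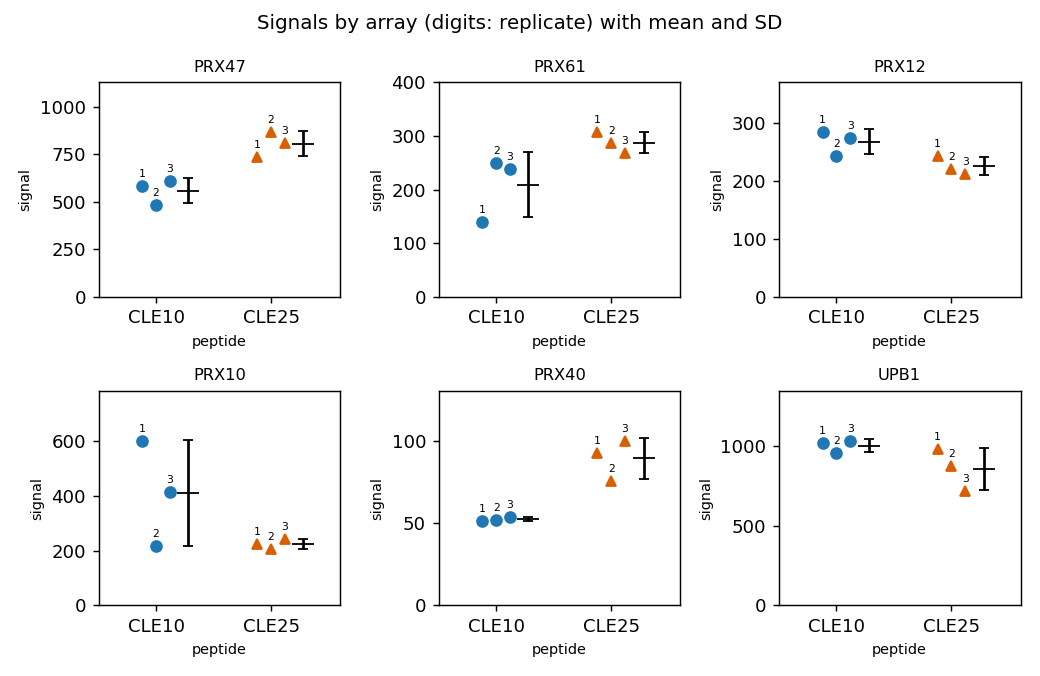
Signals of PRX47, PRX61, PRX12, PRX10, PRX40 and of UPB1 by peptide, with a point per array (digits give the replicate) and the mean and SD beside the points; each axis starts at 0. The groups are separate for PRX47, PRX61, PRX12 and PRX40, while for PRX10 CLE10 replicate 2 lies among the CLE25 arrays and for UPB1 CLE25 replicate 1 lies among the CLE10 arrays.

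Outside that group, PRX10, PRX61 and PRX12 stood apart in single measures. PRX10 (AT1G49570) had 602, 216 and 413 with CLE10 and 224, 207 and 242 with CLE25. CLE10 replicates 1 and 3 were high, while CLE10 replicate 2 lay among the CLE25 arrays. The mean was 1.83 times higher with CLE10, and the log2 fold change of -0.74 ± 0.28 had the largest standard error of these 3 genes (limma adjusted p = 0.999). It was -0.41 without CLE10 replicate 1 and -1.14 without CLE10 replicate 2 (limma adjusted p = 0.337, the smallest of any member under the alternatives).

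PRX61 (AT5G24070) had 139, 249 and 239 with CLE10 and 308, 287 and 268 with CLE25. The groups did not overlap, but CLE10 replicate 1 was far below the other CLE10 arrays. The log2 fold change was 0.49 ± 0.20 (limma adjusted p = 0.999), and it was 0.23 without CLE10 replicate 1. PRX12 (AT1G71695) had 285, 243 and 274 with CLE10 and 242, 221 and 213 with CLE25. All CLE25 arrays were lower, by a narrow margin between 243 and 242, and the log2 difference was -0.24 ± 0.14 (limma adjusted p = 0.999).

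Root hair peroxidases were 4 of the 6 members above 5000, and the mean of 5 of the 7 measured was higher with CLE25, in no case past the test. PRX57 (AT5G17820) had 8315, 7782 and 9016 with CLE10 and 10943, 7813 and 12121 with CLE25. PRX7 (AT1G30870) had 5266, 5162 and 6076, and 6545, 5510 and 8659. In both genes CLE25 replicates 1 and 3 lay above every CLE10 array and CLE25 replicate 2 lay among them. PRX44 (AT4G26010), which is known to act in root hair growth, had 8066, 6666 and 9611 with CLE10 and 9069, 6816 and 11948 with CLE25. PRX35 (AT3G49960) had 3425, 2305 and 3974, and 3062, 2624 and 5738. CLE25 replicate 3 was the highest array for these 4 genes, and replicate 2 was the lowest array of each peptide for all of them.

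Their log2 fold changes were 0.31 ± 0.15 for PRX7, 0.28 ± 0.15 for PRX57, 0.18 ± 0.26 for PRX35 and 0.17 ± 0.18 for PRX44, with a limma adjusted p of 0.999 each. Without CLE25 replicate 3 they were 0.13 for PRX7, 0.15 for PRX57, -0.15 for PRX35 and -0.03 for PRX44. Without CLE10 replicate 2 the value of PRX35 was -0.04. Without CLE25 replicate 2 PRX57 had 0.46 and PRX7 had 0.46 (limma adjusted p of 0.518 and 0.64).

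The other 3 members of the root hair group behaved otherwise across arrays. PRX69 (AT5G64100), which acts in root hair growth at low temperature, had 7325, 5764 and 7795 with CLE10 and 5635, 6313 and 7729 with CLE25. PRX62 (AT5G39580), which acts with it, had 192, 124 and 137, and 110, 176 and 136. PRX27 (AT3G01190) had 4000, 3959 and 4255 with CLE10 and 6443, 3500 and 3974 with CLE25. CLE25 replicate 1 was the high array for PRX27 and the lowest for PRX69 and PRX62, and the groups of all 3 overlapped.

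Expansins of root hairs varied over the arrays much like the first 4 genes. EXPA7, a cell-wall expansin of root hairs, had 1569, 1325 and 1799 with CLE10 and 1746, 1370 and 2596 with CLE25. EXPA18, its relative, had 2887, 2635 and 3204, and 2992, 2615 and 4049. CLE25 replicate 3 was again the highest array. The summed signal of both ranged from 3960 to 5003 with CLE10 and from 3985 to 6645 with CLE25. On CLE25 replicate 3 the median deviation from a gene's own mean over the 6 arrays was 0.40 (log2) for the 7 root hair peroxidases and 0.52 for the 2 expansins, beside -0.02 for all probe sets. Not all of the 7 were raised there. PRX62 (136, mean signal 146) and PRX27 (3974, mean signal 4355) lay below their means on that array. On replicate 2 the median deviation was -0.24 with CLE10 and -0.23 with CLE25 for the peroxidases, and -0.27 and -0.26 for the expansins. The part of root hair cell number in these values was not tested.

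**Figure D5:**
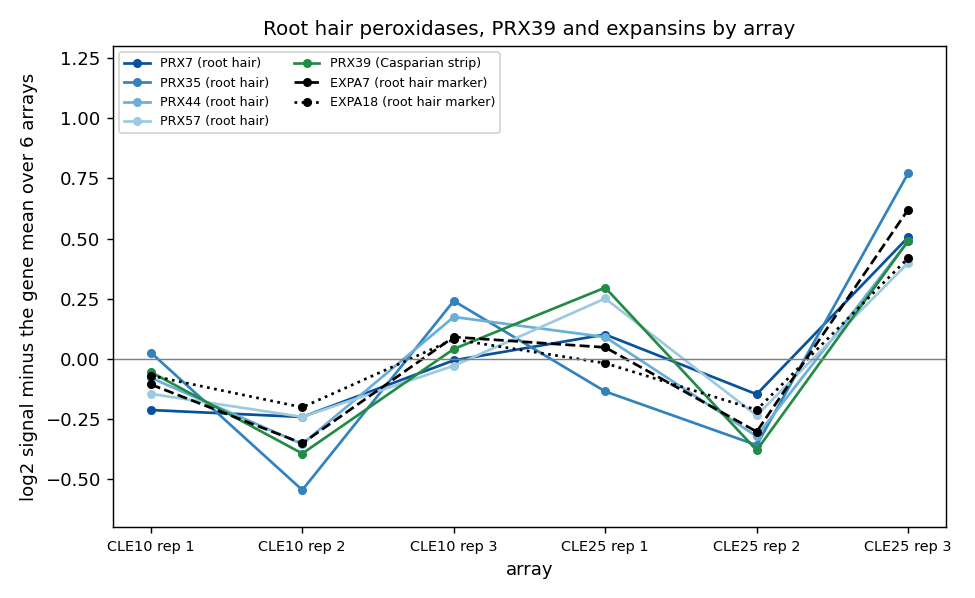
Log2 signal minus the gene's mean over the 6 arrays for PRX7, PRX35, PRX44, PRX57, PRX39 and the root hair expansins EXPA7 and EXPA18; lines join the values of a gene and the arrays have no order. All 7 genes are highest on CLE25 replicate 3 and below their mean on replicate 2 of both peptides. The genes drawn are only part of their groups. The root hair members PRX69, PRX62 and PRX27 are not drawn, and each was highest on another array.

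Over the whole family, single arrays of both peptides held more of the extreme values than over all probe sets. CLE25 replicate 3 was the highest array for 10 of the 30 tested peroxidases (33.3%), beside 17.9% of all probe sets, and CLE10 replicate 3 for 7 (23.3%), beside 12%. Over all probe sets CLE25 replicate 3 was more often the lowest array (24.6%) than the highest, and it was the lowest for 4 of the peroxidases (13.3%). CLE10 replicate 2 was the lowest for 11 (36.7%), beside 15.1% of all probe sets. The median deviation over the 30 genes was -0.17 on CLE10 replicate 2, -0.11 on CLE25 replicate 2 and 0.15 on CLE25 replicate 3. No statistical test was made of these counts.

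Of the 4 Casparian strip peroxidases in the list 3 were measured, and none of them passed the test. PRX39 (AT4G11290) had 2811, 2224 and 3004 with CLE10 and 3585, 2245 and 4101 with CLE25. CLE25 replicates 1 and 3 were the highest arrays, and replicate 2 was lowest in both groups. Its log2 fold change was 0.27 ± 0.19, and it was 0.09 without CLE25 replicate 3 and 0.53 without CLE25 replicate 2. PRX9 (AT1G44970), which also acts in the tapetum of anthers, had 1204, 711 and 1231 with CLE10 and 1013, 753 and 1292 with CLE25. Its interval ran from -0.52 to 0.45, and the groups intermixed. For PRX72, given above with the lignin genes, the interval ran from -0.20 to 0.42. Of the strip's other genes, SGN1, a kinase that places the strip, had 1095, 690 and 807 with CLE10 and 708, 717 and 662 with CLE25, or -0.28 ± 0.15 as a log2 fold change. GSO1, the receptor kinase upstream of it, had -0.03 ± 0.12. Neither passed in limma.

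UPB1 and the peroxidases it represses were both measured. UPB1 (AT2G47270) had 1019, 955 and 1034 with CLE10 and 982, 873 and 715 with CLE25. Its arrays overlapped by CLE25 replicate 1 alone, and the log2 fold change was -0.24 ± 0.13 (limma adjusted p = 0.999). Its known targets are PRX39, PRX57 and PRX40. PRX40 (AT4G16270), also a tapetum enzyme, had 51.4, 51.9 and 54.0 with CLE10 and 92.5, 75.8 and 100.3 with CLE25. Every CLE25 array was higher, and the CLE10 arrays were close together. The gene was dim, so it was left out of the test, and with no filter it had a difference of 0.70 ± 0.26 in log2 (limma adjusted p = 1.0). It was the 1 gene of the 18 dim peroxidases whose groups did not overlap. That share lies below the 9.06% of all 22746 probe sets, bright and dim together. CLE25 replicate 3 had the lowest UPB1 signal and the highest signal of each of these 3 targets. That array was also the highest for 10 of the 30 tested peroxidases. CLE25 replicate 2 had the next lowest UPB1 signal, but PRX39 (2245) and PRX57 (7813) were close to their lowest array there. PRX40 (75.8) lay above its CLE10 arrays on that replicate. The link between UPB1 and these targets was not tested.

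Several bright peroxidases without an assigned role here were nearly level between the peptides. PRX45 (AT4G30170) had 14329, 13213 and 12179 with CLE10 and 14930, 12522 and 12925 with CLE25, with an interval from -0.21 to 0.25. PRX30 (AT3G21770) had 4510, 3674 and 3834, and 4384, 4155 and 3636, with an interval from -0.22 to 0.26. These were among the narrowest bounds of the family, well inside 1.5-fold. PRX16 (AT2G18980), which is linked to seed germination, had 5459, 6059 and 6181 with CLE10 and 5444, 4739 and 5651 with CLE25. For PRX16, 2 of the 3 CLE25 arrays lay below every CLE10 array, with a log2 fold change of -0.16 ± 0.10. PRX21 (AT2G37130) had 4310, 3153 and 5097, and 3987, 4201 and 4778. PRX8 (AT1G34510) had 3880, 3536 and 3924 with CLE10 and 2992, 3421 and 4896 with CLE25. For PRX8 the CLE25 arrays held both the highest and the lowest value, and the means were 3780 ± 212 and 3770 ± 999.

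Among the listed loci, neighbouring genes could be followed in 2 pairs. PRX37 (AT4G08770), whose overexpression is known to dwarf plants, lies next to PRX38 (AT4G08780). PRX37 had means of 1966 ± 174 with CLE10 and 1857 ± 421 with CLE25. PRX38 had 128 ± 25.1 and 114 ± 20.4, so both were tested and neither group separated. In the other pair PRX59 (AT5G19890) was tested, with 741, 361 and 476 with CLE10 and 547, 330 and 901 with CLE25, while PRX58 (AT5G19880) was dim on every array. PRX59 had the largest standard error of the 30 tested members, 0.32, with its highest value again on CLE25 replicate 3.

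Further tested members were given by their bounds. PRX24 (AT2G39040) had means of 1749 ± 179 with CLE10 and 1826 ± 382 with CLE25, with an interval from -0.26 to 0.36. PRX31 (AT3G28200) had 1159 and 1077, and PRX63 (AT5G40150) had 352 ± 43.0 and 351 ± 23.0. PRX31 and PRX63 stayed within 1.5-fold. PRX56 (AT5G15180) had 1286 ± 137 and 1123 ± 179, a log2 fold change of -0.20 ± 0.13. PRX26 (AT2G43480) had 265, 407 and 409 with CLE10 and 324, 495 and 499 with CLE25. In PRX26 replicate 1 was the lowest array of both peptides. Its log2 fold change was 0.28 ± 0.20, and 0.08 without CLE10 replicate 1.

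Few genes of the pathways around these enzymes had a probe set of their own. Of 19 lignin monomer synthesis genes 2 were measured and 1 tested. This was HCT, a transferase of the monolignol pathway, with 2940 ± 387 with CLE10 and 2723 ± 142 with CLE25, while CCR2 was dim. Of 10 NADPH oxidases, which make the superoxide that feeds hydrogen peroxide to peroxidases, 3 were tested, with log2 fold changes of -0.25 ± 0.20 for RBOHE, 0.09 ± 0.14 for RBOHG and 0.01 ± 0.19 for RBOHI. Of 17 laccases, the other enzymes that couple lignin, LAC16 alone was measured and it was dim. None of 6 superoxide dismutases and catalases was measured. Of the 13 family members outside the list 7 were measured and 2 tested, PRX42 with -0.11 ± 0.11 and PRX71 with -0.09 ± 0.28. No gene of these lists passed in limma (0 in either direction).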

How the data were processed

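The table deposited by the authors holds intensity on a linear scale, with a signal for each probe set and array. GCOS 1.4 is named in the submitters' processing notes, without settings. The mean after trimming 2% at each end was 500 on all 6 arrays, a global scaling that would hide a shift of all transcripts. The values were used as deposited, without the 64 control probe sets. Names came from the platform's annotation, matched by gene ID to a TAIR10.1 table that served for names and neighbours only. Of 22746 probe sets, 13513 named 1 gene, 503 several and 8730 none here; 13436 of the 13513 matched the table. Each measured peroxidase had 1 probe set. Family numbers follow locus order, and the table held the same number for all 12 loci where it gives one.

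Signals were analysed as log2(signal + 6.03), the pseudocount being the 10th percentile. This understates the change of dim genes. Probe sets with a mean under the 40th percentile were left out. The other 13648 were fitted with limma 3.58.1 (R 4.3.3; lmFit, eBayes with a trend), with Benjamini-Hochberg adjustment over all of them and a threshold of 0.05. For arrays, their number limits the precision. On simulated data with 200 changed probe sets among 13648, limma recovered 35.1% of those changed by 1.5-fold, 87.9% at 2-fold and 99.1% at 3-fold. The simulated arrays were independent, with spreads drawn from limma's own fitted prior, and many true changes ease the adjustment. In the real fit 0% of probe sets were called. The simulated shares are therefore not the odds that a peroxidase changed by these folds would be called here.

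The members and lists were chosen with earlier results of these data known. Values per array are given for the 12 members of highest mean signal, members at an unadjusted p under 0.05 or with no overlap, and the role groups. Further members were given such values after they were seen. Alternatives were other pseudocounts, filters and normalization, no trend, array weights, a replicate block, all probe sets of a gene and leaving out each array.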

Additional observations from a re-analysis of the deposited data

How the results depend on the processing

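No peroxidase was called under any alternative (0 of 30, limma adjusted p from 0.337 upward), and no gene of the pathway lists. Of the 30 tested peroxidases, 12 kept their sign under all alternatives that kept their probe set, PRX47, PRX10, PRX61, PRX12, PRX7, PRX57 and PRX39 among them. The median over the family ran from -0.04 to 0.09 on leaving out an array. The count at an unadjusted p under 0.05, 3 as reported, was 1 to 5 on leaving out an array. The count with no overlap, 3 as well, was 1 with the filter at the 60th percentile, which tests fewer genes, and 4 to 7 on leaving out an array, since fewer arrays separate more easily. Using all probe sets of a gene changed nothing, because each gene has 1.

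On leaving out an array, 18 peroxidases changed sign, and the cause was not tested. Their log2 fold changes ran from -0.24 to 0.12 for PRX8, -0.29 to 0.17 for PRX9, -0.12 to 0.064 for PRX17, -0.12 to 0.23 for PRX21, -0.12 to 0.16 for PRX24 and -0.19 to 0.20 for PRX25. They ran from -0.13 to 0.31 for PRX27, -0.040 to 0.11 for PRX30, -0.15 to 0.41 for PRX35, -0.23 to 0.10 for PRX37, -0.029 to 0.38 for PRX44 and -0.054 to 0.081 for PRX45. They ran from -0.24 to 0.48 for PRX59, -0.27 to 0.082 for PRX62, -0.084 to 0.089 for PRX63, -0.020 to 0.38 for PRX66, -0.22 to 0.017 for PRX69 and -0.041 to 0.23 for PRX72. PRX59 was also reversed with array weights (-0.0061).

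Across probe sets, the deviations of a CLE10 and a CLE25 array that share a replicate number correlated at 0.076, 0.136 and 0.221. For each number this exceeded the correlation with the other numbers, a weak hint of pairing that no label states. Deviations were taken from each group's own mean, so a positive same-number value lowers the others on average. These comparisons are not independent. The arrays were treated as unpaired. With a replicate block limma called 1 of all probe sets and 0 peroxidases, and PRX47 had an adjusted p of 0.476. At an unadjusted limma p under 0.05 stood 7 peroxidases, PRX47, PRX10, PRX7, PRX57, PRX39, PRX61 and PRX26, beside 5.96% of all probe sets. The block made the standard error smaller for most of the tested peroxidases. Among them were the root hair members PRX7 (0.10), PRX57 (0.10), PRX35 (0.12) and PRX44 (0.09). Outside that group were PRX9 (0.11, against 0.22 without the block) and PRX39 (0.10, against 0.19). It was larger for the root hair member PRX62 (0.23, against 0.22) and for PRX17 and PRX38. Dim signals limit 18 of the 48 peroxidases.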
